A study of Mus musculus with 6 samples.

Results

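Expression of 6 genes was followed through single-nucleus RNA profiles of mouse striatum: Tafa2, Csgalnact1, Inpp4b, Prr16, Trp53inp1 and Zfp804b. The 6 genes were chosen by measured values, because the difference between Celsr3 heterozygous and wild-type nuclei was not the same in the 2 main neuron types of the striatum, the D1 and the D2 medium spiny neurons (MSNs). They are 6 of the 24841 genes in the deposited table and 6 of the 12718 genes that could be tested in both neuron types. Their D1 and D2 values, and the threshold of that contrast where it is named, belong to the selection and are given as a description that tests nothing. Tests of the 6 genes are used only in the other cell classes, and counts of the 6 past a threshold in D1 or D2 are part of that description. The study compared 3 libraries of wild-type striatum with 3 libraries of striatum heterozygous for Celsr3, each a separate biological replicate of dissected, flash-frozen tissue, and 48038 nuclei were kept. The labels give the genotype and the tissue of each library, with no further agent or treatment, and name no allele, sex, age or strain. They do not say how animals map to replicates, so the p-values below measure the spread between these libraries.

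Celsr3 encodes a seven-pass cadherin with a role in axon guidance and in the wiring of the forebrain. D1 MSNs carry the dopamine receptor Drd1 and form the direct pathway out of the striatum, and D2 MSNs carry Drd2 and form the indirect pathway. Both types occur in the matrix and in the patches called striosomes, and in the dorsal and the ventral striatum. The 6 genes do not belong to a common pathway. Tafa2 encodes a small secreted protein of the TAFA family, whose members bind neurexins at synapses. Csgalnact1 encodes an enzyme that starts chondroitin sulfate chains, the sugar chains of the extracellular matrix around neurons. Inpp4b encodes a lipid phosphatase that acts on phosphoinositides and restrains Akt signalling. Prr16, also called Largen, is known for raising protein synthesis and cell size. Trp53inp1 is induced by p53 under stress and takes part in autophagy. Zfp804b encodes a zinc-finger protein related to Zfp804a, and its function is little known.

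In the GENCODE vM21 annotation of GRCm38, all 6 are protein-coding genes. Zfp804b lies at chr5:6769010-7344756 on the minus strand, Inpp4b at chr8:81342556-82127914 on the plus strand, Csgalnact1 at chr8:68356781-68735146 on the minus strand, Tafa2 (listed there as Fam19a2) at chr10:123263996-123741204 on the plus strand, and Trp53inp1 at chr4:11156431-11174379 on the plus strand. The position of Prr16 is not given here. Trp53inp1 spans 17.9 kb and the other 5 genes span 302.3 to 785.4 kb. Other annotated genes overlap 5 of the 6, and the 4 overlapping genes that were in the table had mean values below 0.01 per nucleus in both MSN classes.

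RefSeq promoter windows of GRCm38.p6, from 250 bases before to 50 bases after the start set there for a gene, were used for 3 of the 6 genes. Prr16 was left out of this search, so a window for it is neither shown nor excluded. The Zfp804b window lies wholly inside the GENCODE span given above, downstream of the GENCODE start, and its last 50 bases open with ATG. Its CpG count and motifs are therefore not read as those of the promoter at the GENCODE start. The windows of Zfp804b (chr5:7344329-7344628, minus strand) and Inpp4b (chr8:81342312-81342611, plus strand) are shown because these are the 2 of the 6 genes inside the threshold of the contrast that chose them, with each CpG in capitals.
Zfp804b: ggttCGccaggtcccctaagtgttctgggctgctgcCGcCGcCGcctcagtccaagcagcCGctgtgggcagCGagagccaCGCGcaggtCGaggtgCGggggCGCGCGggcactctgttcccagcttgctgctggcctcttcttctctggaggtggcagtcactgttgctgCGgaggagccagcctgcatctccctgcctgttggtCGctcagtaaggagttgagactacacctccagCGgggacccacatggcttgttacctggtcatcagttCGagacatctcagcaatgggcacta
Inpp4b: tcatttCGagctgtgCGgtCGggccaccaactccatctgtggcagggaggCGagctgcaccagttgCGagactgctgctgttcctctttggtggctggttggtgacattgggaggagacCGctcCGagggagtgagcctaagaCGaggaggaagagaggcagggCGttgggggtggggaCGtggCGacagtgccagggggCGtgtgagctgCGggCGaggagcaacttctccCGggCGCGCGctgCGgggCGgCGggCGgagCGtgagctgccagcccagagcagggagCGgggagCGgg
The Zfp804b window held 17 CpG dinucleotides and the Inpp4b window 25, against 8 in the Tafa2 window (chr10:123263826-123264125, plus strand) and a median of 7 over 32851 windows. Their GC content was 63.3% and 68.3%, against 41.7% for Tafa2 and a median of 52.7%. Both strands were searched for the cyclic AMP response element TGACGTCA, the AP-1 site TGANTCA, the forkhead site GTAAACA, the MEF2 site and the p53 half-site, which occurred in 1.79%, 7.81%, 3.65%, 3.69% and 8.36% of all windows. None of these 5 motifs was found in the 3 windows. CCAAT, present in 37.4% of windows, occurred once in Inpp4b and once in Tafa2, and the GC box GGGCGG, present in 35.7%, occurred at 2 places in Inpp4b.

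The value used throughout is the mean deposited value per nucleus, a depth-corrected count of RNA molecules (UMIs), over the nuclei of 1 class in 1 library. Changes are differences of log2(mean + 0.01), heterozygous minus wild type, with the standard error (SE) of the limma fit over 3 libraries a group. Nuclei were clustered without the 6 genes and without Celsr3, and clusters were named from marker genes. D1 MSN-like nuclei numbered 4089 in wild-type and 4335 in heterozygous libraries, and D2 MSN-like nuclei 3746 and 3399. Over the 6 libraries Drd1 was at 0.857 to 1.21 in the D1 class and at 0.0864 to 0.126 in the D2 class, and Drd2 at 0.063 to 0.0861 and 3.58 to 4.42. Libraries had a median of 3275 to 3501.5 detected genes per nucleus in the D1 class and of 3071 to 3385.5 in the D2 class. Between libraries, 274 of 48559 barcodes were shared. Over all nuclei, and in the D1 and the D2 class, Celsr3 was lower in every heterozygous library than in every wild-type library. Celsr3 overlapped between the genotypes in some other classes, such as GABAergic interneuron-like nuclei, with a change of -0.12 ± 0.25 (SE). In D1 MSN-like nuclei it was at 0.147, 0.170 and 0.176 in wild type and at 0.0799, 0.102 and 0.101 in heterozygous replicates 1 to 3, a change of -0.75 ± 0.13 (SE) with a limma adjusted p of 0.139. The D2 change was -0.64 ± 0.16 (limma adjusted p = 0.283), so Celsr3 did not pass the threshold over all genes in either type. The D1 change passed without wild-type replicate 1, at -0.82 (limma adjusted p = 0.0269).

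In wild-type libraries 5 of the 6 genes were at a lower or similar level in D1 than in D2 MSN-like nuclei, and Inpp4b was higher in D1 in each library. In heterozygous libraries the D1 level stood higher relative to D2 for every one of the 6 genes. The D1 minus D2 difference was farther up in each heterozygous library than in any wild-type library for 6 of 6 genes. Over all 12718 genes tested, 6.52% had this arrangement, and 0.0236% (3 genes) had an adjusted p under 0.05 in either direction. Because this contrast chose the 6 genes, nothing is read from these counts. The 3 genes inside that threshold were Zfp804b, Inpp4b and Foxp2, which is not among the 6 and had the opposite sign. Foxp2, a transcription factor of striatal neurons, had a D1 minus D2 difference of 1.81, 1.84 and 2.02 in wild-type and 1.60, 1.60 and 1.55 in heterozygous replicates 1 to 3 (log2). Its difference of -0.31 ± 0.05 (SE) became -0.16 with each cluster of a class given the same weight, where it missed the threshold (limma adjusted p = 0.873). It also missed it at -0.32 without heterozygous replicate 1 and at -0.32 without heterozygous replicate 2, and over 17 alternatives its limma adjusted p ran from 0.000591 to 0.949. Inpp4b, at 0.50 ± 0.09 (SE), stood just inside the threshold, and Tafa2, at 0.57 ± 0.11, just outside it. They were followed by Slco5a1, at 0.44 ± 0.08, and Prr16, at 0.42 ± 0.08. The count of 3 genes depended on single libraries: it was 0, 1 and 22 when heterozygous replicate 1, 2 or 3 was left out, and 13 and 6 when wild-type replicate 1 or 3 was. Under each of these omissions the difference stayed positive for all 6 genes.

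**Figure D1:**
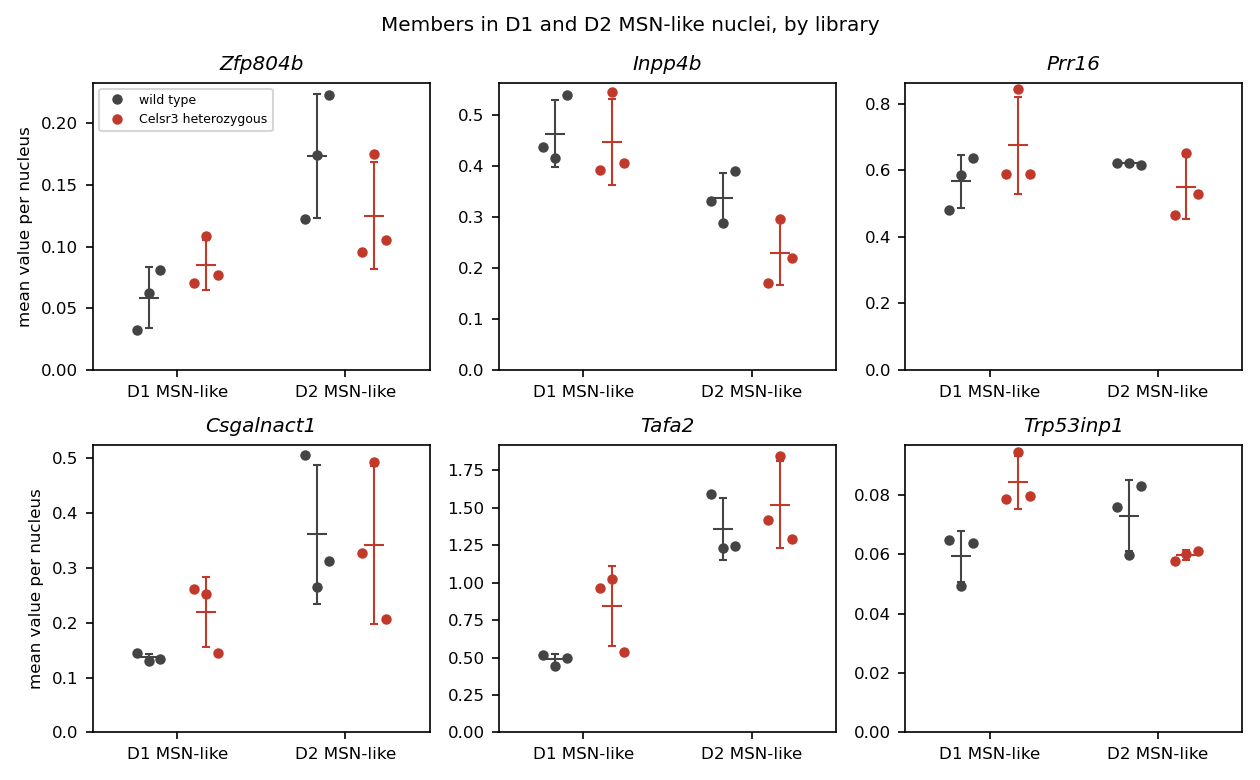
Mean deposited value per nucleus of each of the 6 genes in the D1 and D2 MSN-like classes, 1 point per library, with bars for the mean and SD of 3 libraries a genotype. Tafa2 in D1 runs from 0.445 to 0.520 in wild type and from 0.538 to 1.03 in heterozygous libraries, and in D2 the genotypes overlap for each of the 6 genes.

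**Figure D2:**
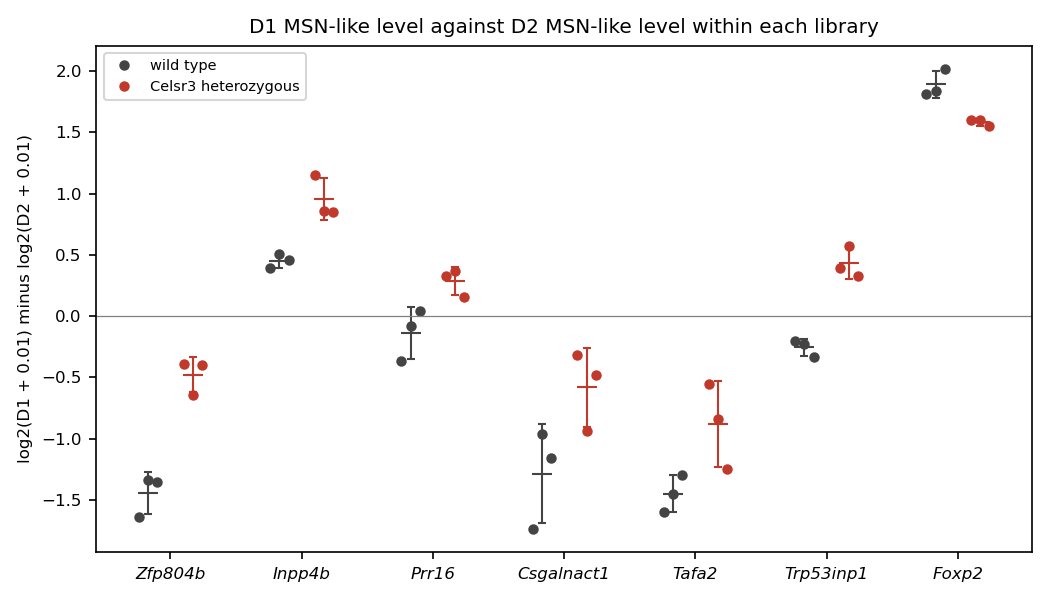
Difference of log2(mean + 0.01) between the D1 and the D2 class of the same library, for the 6 genes and Foxp2, 1 point per library, with the mean and SD of each genotype. For Zfp804b the wild-type libraries lie between -1.64 and -1.34 and the heterozygous ones between -0.64 and -0.39.

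The shared sign came from different places. Within the D1 class alone, Tafa2, Csgalnact1 and Trp53inp1 were higher in each heterozygous library than in any wild-type library, 3 of the 6 genes beside 11.0% of the 13406 genes tested in that class. Within the D2 class alone, none of the 6 separated the genotypes, beside 14.5% of the 12773 genes tested there in either direction. These values belong to the contrast that chose the genes and are not used as support.

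Tafa2, the secreted TAFA protein, was higher in D1 MSN-like nuclei of 2 heterozygous libraries. Its D1 level was 0.520, 0.445 and 0.499 in wild-type and 0.966, 1.03 and 0.538 in heterozygous replicates 1 to 3, a change of 0.72 ± 0.21 (SE). Heterozygous replicate 3 stood just above the wild-type range and the other two far above it. Without heterozygous replicate 3 the change was 1.02. Some lists of markers of other cell types in the same D1 MSN-like nuclei differed between these libraries as well. The 8 oligodendrocyte markers, none of them at 0 in any library, summed to 5.63, 5.09 and 4.69 in wild-type and 3.15, 3.38 and 6.21 in heterozygous replicates 1 to 3, so replicates 1 and 2 were below the wild-type range and replicate 3 above it. The 7 choroid plexus markers summed to 1.45, 1.28 and 0.534 against 0.401, 0.512 and 1.71, in the same order of the heterozygous libraries, with Folr1 and Otx2 at 0 in some libraries. Wild-type replicate 3 was there near heterozygous replicates 1 and 2, and the sum moved with Ttr, at 0.93, 0.77 and 0.08 against 0.04, 0.03 and 1.2. Heterozygous replicates 1 and 2 were not both below the wild-type range in the astrocyte sums (7.8, 7.2 and 8.1 in heterozygous libraries) or the oligodendrocyte precursor sums (2.3, 2.7 and 2.3). In the committed oligodendrocyte precursor sums both were. In the D2 class the oligodendrocyte sums were 5.89, 5.53 and 5.34 against 3.64, 3.88 and 6.85. The part of these differences between libraries in the Tafa2 values was not tested. The D2 level of Tafa2 was 1.60, 1.23 and 1.25 in wild-type and 1.42, 1.85 and 1.30 in heterozygous libraries, with overlapping genotypes and a change of 0.16 ± 0.14, which ran from 0.01 without heterozygous replicate 2 to 0.28 without wild-type replicate 1. The D1 minus D2 difference of Tafa2 was -1.60, -1.45 and -1.30 in wild-type and -0.55, -0.84 and -1.25 in heterozygous libraries (log2), so D1 stayed below D2 in all 6. The D1 MSN-like class held clusters 1, 4 and 13, and the difference between the genotype means of Tafa2 was largest in cluster 1 (0.623 and 1.18). There it was at 0.603, 0.559 and 0.707 in wild-type and 1.54, 1.41 and 0.603 in heterozygous libraries, while cluster 13 was level at 1.02, 0.930 and 0.888 against 1.00, 0.947 and 1.03. In cluster 4, where Tafa2 was low, heterozygous replicates 1 and 2 were also above the wild-type libraries, at 0.0625, 0.0637 and 0.104 against 0.193, 0.139 and 0.0874. These levels were below the oligodendrocyte-like level of the same library, given further below, in each library except heterozygous replicate 3. The heterozygous libraries fell in the same order in both. No expression is therefore read from the cluster 4 values, and the part of free RNA in them was not tested. The share of cluster 4 nuclei with any Tafa2 was 5.88%, 5.41% and 9.74% in wild-type and 16.9%, 11.8% and 7.23% in heterozygous libraries, again with replicate 3 inside the wild-type range. Cluster 1 also held nuclei of high values, of which cluster 4 had none. D1 MSN-like nuclei with a Tafa2 value of 5 or more, a limit chosen after the values were seen, numbered 14, 33 and 22 in wild-type and 89, 108 and 14 in heterozygous libraries. They made up 22.4% of all Tafa2 in wild-type and 41.4% in heterozygous D1 MSN-like nuclei, and 52 wild-type and 188 heterozygous ones were in cluster 1.

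Nuclei of cluster 1 with high Tafa2 are described here by their region lists as well. Compared with the other 4346 nuclei of cluster 1, the 240 with a Tafa2 value of 5 or more had a summed value of 3.80 against 2.01 for the list of 9 ventral striatum genes, 4.1 against 2.92 for the 8 striosome genes and 8.30 against 13.5 for the 7 matrix genes. The 8 eccentric MSN markers, of a rarer MSN type that also expresses Tafa2 strongly, summed to 4.86 against 2.97. These nuclei are pooled over libraries, and 188 of the 240 are heterozygous. Their Drd1 mean was 1.16 against 1.07 and their median number of genes 3614.5 against 3468, so they did not stand apart in either. Over all D1 MSN-like nuclei the ventral list summed to 1.36 to 1.47 in wild-type libraries. It summed to 1.52, 1.90 and 1.75 in heterozygous replicates 1 to 3, where replicate 1 was lowest, unlike the order of Tafa2. Of the 9 genes of this list 8 were higher and none passed the test in limma, with 4 at an unadjusted p under 0.05, and the median change was 0.33. Over all genes tested in the class 64.8% were higher, 9.65% had an unadjusted p under 0.05 and the median was 0.06. Drd3, a dopamine receptor of the ventral striatum, stood at a change of 0.90 ± 0.19 (limma adjusted p = 0.222) and the neuropeptide gene Cartpt at 0.73 ± 0.20 (limma adjusted p = 0.293). In the D2 class the same list summed to 1.12 to 1.40 in wild-type and 1.31 to 1.71 in heterozygous libraries. A different proportion of ventral tissue in the dissections and a change within cells cannot be told apart here, and the part of the ventral and eccentric genes in the Tafa2 values was not tested.

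Csgalnact1, the chondroitin sulfate enzyme, followed the same libraries. In D1 MSN-like nuclei it was at 0.144, 0.131 and 0.134 in wild-type and 0.261, 0.252 and 0.145 in heterozygous replicates 1 to 3, a change of 0.60 ± 0.20 (SE). Heterozygous replicate 3 was again close to the wild-type libraries, and without it the change was 0.86. The oligodendrocyte and choroid plexus sums given for Tafa2 set the same 2 libraries apart from replicate 3, and their part in the Csgalnact1 values was not tested. The D2 values were 0.505, 0.265 and 0.312 against 0.327, 0.493 and 0.207, a change of -0.10 ± 0.30 with wide overlap. That D2 change was 0.16 without wild-type replicate 1 and 0.20 without heterozygous replicate 3, so its sign was not fixed. The D1 minus D2 difference was -1.74, -0.96 and -1.16 in wild-type and -0.32, -0.94 and -0.48 in heterozygous libraries (log2), with wild-type replicate 2 and heterozygous replicate 2 almost level. In cluster 1 Csgalnact1 was at 0.170, 0.162 and 0.195 in wild-type and 0.435, 0.352 and 0.160 in heterozygous libraries. In cluster 13 it was at 0.283, 0.276 and 0.211 against 0.254, 0.209 and 0.305, which overlap. D1 MSN-like nuclei with a Csgalnact1 value of 5 or more numbered 4 in wild-type and 24 in heterozygous libraries (13, 10 and 1), and in cluster 1 they numbered 1 and 23. Those 24 nuclei of cluster 1 had a ventral sum of 4.38 against 2.10 and a striosome sum of 6.04 against 2.97 in the other nuclei of the cluster. Of the 28 D1 MSN-like nuclei with high Csgalnact1, 10 also had high Tafa2, which is 35.7% of the former and 3.57% of the 280 high Tafa2 nuclei.

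Inpp4b is the phosphoinositide phosphatase. In D2 MSN-like nuclei it was at 0.331, 0.288 and 0.389 in wild-type and 0.171, 0.296 and 0.220 in heterozygous replicates 1 to 3, a change of -0.56 ± 0.18 (SE), with heterozygous replicate 2 inside the wild-type range. Without heterozygous replicate 1 the D2 change was -0.37. The D1 values were 0.436, 0.415 and 0.538 against 0.392, 0.544 and 0.405, a change of -0.06 ± 0.14. The D1 minus D2 difference in each library was 0.39, 0.51 and 0.46 in wild-type and 1.15, 0.86 and 0.85 in heterozygous libraries (log2), and the genotypes were well separated on that scale. The D2 MSN-like class held clusters 2, 6 and 11, and the clearest separation was in cluster 6, at 0.614, 0.487 and 0.777 in wild-type and 0.232, 0.427 and 0.330 in heterozygous libraries. Microglia-like and mural-like nuclei had more Inpp4b than MSNs. In cluster 6 their markers summed to 0.971, 0.866 and 1.06 against 0.848, 0.840 and 0.807 (microglia) and 0.266, 0.245 and 0.293 against 0.192, 0.189 and 0.196 (mural). Microglia sums were 0.830 to 0.894 against 0.744 to 0.802 in D2 and 0.957 to 1.06 against 0.898 to 0.908 in D1. Mural sums overlapped, at 0.176 to 0.271 against 0.169 to 0.204 in D2 and 0.240 to 0.338 against 0.224 to 0.279 in D1. Cholinergic interneuron-like and eccentric MSN-like nuclei had the most Inpp4b. In cluster 6 the cholinergic markers summed to 0.166, 0.129 and 0.0941 against 0.105, 0.168 and 0.112. The eccentric markers summed to 1.18, 0.513 and 0.808 against 0.848, 0.952 and 0.505, so the genotypes overlapped in both lists. The part of these lists in the Inpp4b values was not tested. D2 MSN-like nuclei with an Inpp4b value of 5 or more numbered 13, 13 and 12 in wild-type and 1, 3 and 4 in heterozygous libraries. Of these nuclei, 33 of the 38 wild-type and 7 of the 8 heterozygous ones were in cluster 6. Nuclei with such values made up 19.3% of the summed Inpp4b of wild-type and 6.35% of that of heterozygous D2 MSN-like nuclei. The limit was chosen after the values were seen and no share over all genes was computed for such counts, so nothing is read from them. In the D1 class such nuclei numbered 11, 15 and 24 against 13, 24 and 8, with overlap. The 40 high nuclei of cluster 6 had a ventral sum of 3.50 against 2.12, a striosome sum of 5.35 against 2.28 and a Drd2 mean of 1.90 against 3.33 in the other 2150 nuclei of the cluster.

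Zfp804b, the zinc-finger gene, had the largest difference of the 6 between D1 and D2 in the reported fit, 0.97 ± 0.14 (SE) on the log2 scale, and low levels in both types. On the share of nuclei with a value it was 0.36, below the 0.40 of Csgalnact1. In D2 MSN-like nuclei it was at 0.122, 0.175 and 0.223 in wild-type and 0.0958, 0.175 and 0.105 in heterozygous replicates 1 to 3, a change of -0.45 ± 0.25. The D1 values were 0.0324, 0.0627 and 0.0811 against 0.0705, 0.109 and 0.0773, a change of 0.52 ± 0.27. Both rested on single libraries: the D1 change was 0.21 without wild-type replicate 1, and the D2 change was -0.26 without wild-type replicate 3, -0.29 without heterozygous replicate 1 and -0.70 without heterozygous replicate 2. Neither type separated the genotypes, and the per-library D1 minus D2 difference did, at -1.64, -1.34 and -1.35 in wild-type and -0.39, -0.64 and -0.40 in heterozygous libraries. The D1 level was no higher than in a class taken to lack the gene. Oligodendrocyte-like nuclei, that class, had Zfp804b at 0.0573, 0.0850 and 0.110 in wild-type and 0.0785, 0.153 and 0.145 in heterozygous libraries. The D1 level was below this in 6 of 6 libraries, at 0.534 to 0.898 of it, so no expression is read from it, and the part of free RNA was not tested. D1 MSN-like nuclei with a Zfp804b value of 5 or more numbered 0, 2 and 2 in wild-type and 1, 2 and 1 in heterozygous libraries and held 18.7% and 11.2% of the summed value. The share of D1 MSN-like nuclei with any Zfp804b was 3.15%, 4.78% and 6.21% in wild-type and 5.10%, 9.20% and 6.80% in heterozygous libraries, beside 3.16%, 4.71% and 7.23% and then 3.98%, 8.41% and 7.96% of oligodendrocyte-like nuclei. The 3 oligodendrocyte-like clusters had medians of 1808, 1997 and 2537.5 detected genes per nucleus, below those of the D1 class. The D2 level was 2.14, 2.06 and 2.02 times the oligodendrocyte-like level in wild-type and 1.22, 1.15 and 0.727 times it in heterozygous libraries. The oligodendrocyte-like level itself was higher in heterozygous replicates 2 and 3 than in any wild-type library, and nothing is read from the ratio.

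The Zfp804b values of the D2 class are described here by their nuclei of high values. Nuclei with a value of 5 or more numbered 9, 15 and 14 in wild-type and 3, 6 and 2 in heterozygous libraries, 38 of 3746 against 11 of 3399. They made up 52.0% of the summed Zfp804b of wild-type and 21.4% of that of heterozygous D2 MSN-like nuclei. The limit of 5 was chosen after the values were seen and no share over all genes was computed, so nothing is read from these counts. The share of D2 MSN-like nuclei with any Zfp804b was not lower in heterozygous libraries: it was 5.39%, 8.34% and 8.21% in wild-type and 5.24%, 12% and 8.03% in heterozygous libraries. On that share, computed as an alternative after the data were seen, the D2 change was 0.14, of the opposite sign. All 49 high nuclei were in cluster 6, with 16 wild-type and 4 heterozygous, or in cluster 11, with 22 and 7. In cluster 11 Zfp804b was at 0.382, 0.410 and 0.541 in wild-type and 0.202, 0.252 and 0.169 in heterozygous libraries, which do not overlap, and in cluster 6 it was at 0.140, 0.279 and 0.355 against 0.0898, 0.204 and 0.115, which do. The high nuclei had more of the 8 markers of eccentric MSNs, which express Zfp804b strongly as well: a summed 5.00 against 2.00 in the other nuclei of cluster 11 and 2.40 against 0.787 in cluster 6. Single genes outside that list differed in this. The potassium channel gene Kcnj6 was at 0.0204 in the 49 high nuclei, 0.0269 in other D2 MSN-like nuclei and 1.06 in eccentric MSN-like nuclei. Drd2 was at 3.00, 4.03 and 0.114 in the same order, and Vsnl1 at 1.51, 0.218 and 1.52. In the same clusters the high nuclei also had more of the GABAergic interneuron markers, at 1.28 against 0.778 and 1.40 against 0.798. Their striosome sums were 7.59 against 5.65 and 5.10 against 2.31, and the glutamatergic neuron sums were lower, at 1.86 against 3.91 and 2.40 against 3.70. Their median doublet score was 0.0479 against 0.0262 in cluster 11 and 0.0297 against 0.0300 in cluster 6. Over all D2 MSN-like nuclei the eccentric markers summed to 0.754 to 0.967 in wild-type and 0.744 to 1.03 in heterozygous libraries, with none of the 8 at 0, and the part of such nuclei in the result was not tested. No D2 MSN-like nucleus had a value of 5 or more of both Zfp804b and Inpp4b, and since such nuclei were few (49 and 46) nothing is read from that.

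**Figure D3:**
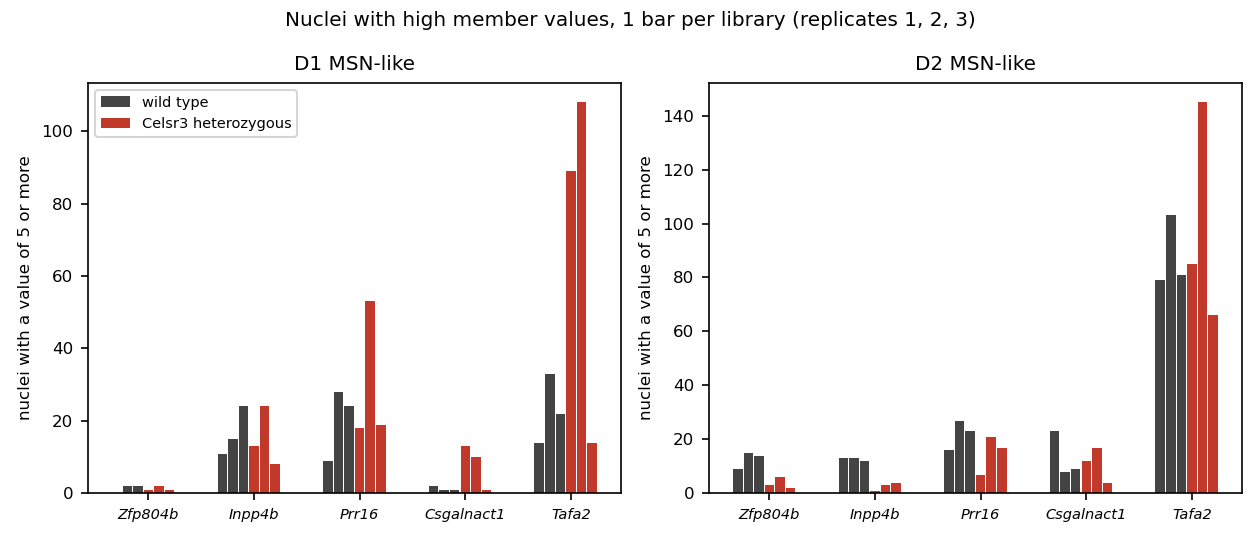
Number of nuclei with a value of 5 or more in the D1 and D2 MSN-like classes, 1 bar per library in the order of replicates 1 to 3, wild type first, for the 5 genes with such nuclei. Zfp804b and Inpp4b in D2 have 9 to 15 such nuclei in each wild-type library and 1 to 6 in each heterozygous library, and Tafa2 in D1 has 89 and 108 in heterozygous replicates 1 and 2 and 14 in replicate 3. These values belong to the selection, and nothing is read from the counts.

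Prr16, known for its effect on cell size, was expressed at similar levels in D1 and D2 MSN-like nuclei. It had the smallest D1-against-D2 difference of the 6 in the reported fit. With each cluster given the same weight Tafa2 was smaller, and on the share of nuclei with a value Inpp4b was, at 0.21 against 0.25 for Prr16. In D1 MSN-like nuclei Prr16 was at 0.480, 0.588 and 0.636 in wild-type and 0.590, 0.845 and 0.590 in heterozygous replicates 1 to 3, a change of 0.23 ± 0.15 (SE). The D2 values were 0.623, 0.622 and 0.617 against 0.466, 0.652 and 0.529, a change of -0.19 ± 0.11. Heterozygous replicate 2 was the highest library in both types. The D1 change was 0.06 without it and 0.12 without wild-type replicate 1, and the D2 change was -0.32 without it and -0.08 without heterozygous replicate 1. The genotypes overlapped in each type and separated in the per-library D1 minus D2 difference, which was -0.37, -0.08 and 0.04 in wild-type and 0.33, 0.37 and 0.16 in heterozygous libraries (log2). In cluster 11 of the D2 class it was lower in each heterozygous library, at 0.340, 0.438 and 0.297 against 0.294, 0.288 and 0.180. Nuclei with a Prr16 value of 5 or more were found in each library, 9, 28 and 24 against 18, 53 and 19 in D1 and 16, 27 and 23 against 7, 21 and 17 in D2, and their numbers overlapped between genotypes.

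Trp53inp1, the p53-induced gene, was low in both types. In D1 MSN-like nuclei it was at 0.0648, 0.0494 and 0.0637 in wild-type and 0.0786, 0.0945 and 0.0797 in heterozygous replicates 1 to 3, a change of 0.45 ± 0.15 (SE) with no overlap. The D2 values were 0.0760, 0.0597 and 0.0830 against 0.0578, 0.0602 and 0.0612, a change of -0.24 ± 0.15 with wild-type replicate 2 among the heterozygous values. That D2 change was -0.15 without wild-type replicate 3 and -0.36 without wild-type replicate 2. The D1 minus D2 difference was -0.20, -0.23 and -0.33 in wild-type and 0.39, 0.57 and 0.33 in heterozygous libraries (log2), below 0 in the former and above 0 in the latter. No D1 or D2 MSN-like nucleus had a Trp53inp1 value of 5 or more. The share of D1 MSN-like nuclei with any Trp53inp1 was 6.11%, 4.89% and 6.21% in wild-type and 7.59%, 9.07% and 7.50% in heterozygous libraries, so here the number of nuclei with a value moved with the mean. Both D1 clusters 1 and 4 were higher in each heterozygous library, at 0.0597, 0.0417 and 0.0556 against 0.0729, 0.0914 and 0.0738 in cluster 1. In D2 cluster 11 it was lower in each, at 0.111, 0.0883 and 0.113 against 0.0687, 0.0511 and 0.0718, while in D2 cluster 6 it was higher in each, at 0.0457, 0.0577 and 0.0453 against 0.0588, 0.0714 and 0.0592. Its level was 0.671 to 1.33 times that of oligodendrocyte-like nuclei in D1 and 0.788 to 1.22 times in D2. The gene is expressed in many cell types, so this ratio does not set a background, and the level was close to that of 1 molecule in a small share of nuclei.

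**Figure D4:**
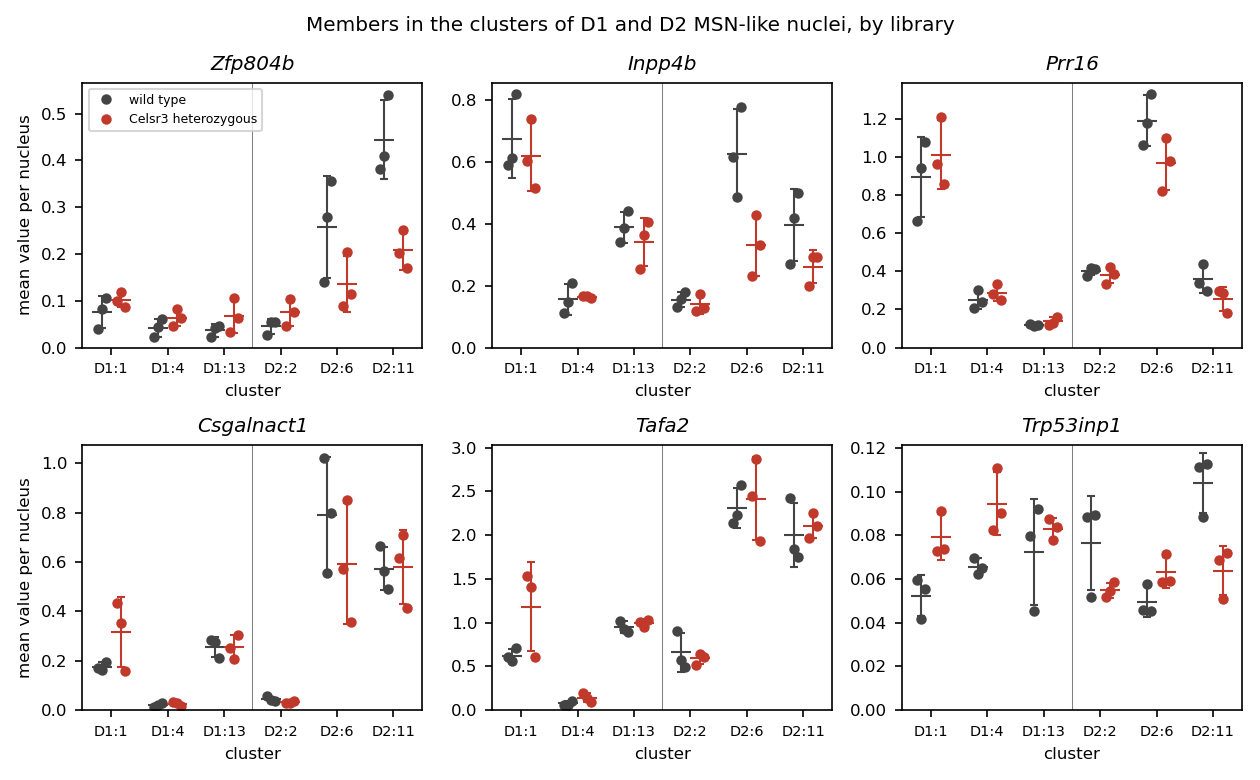
Mean deposited value per nucleus of the 6 genes in the clusters of the D1 MSN-like class (1, 4 and 13) and of the D2 MSN-like class (2, 6 and 11), 1 point per library, with the mean and SD of each genotype. In cluster 1 Tafa2 is at 1.54 and 1.41 in heterozygous replicates 1 and 2, and in cluster 11 Zfp804b is at 0.382 to 0.541 in wild-type and 0.169 to 0.252 in heterozygous libraries.

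These cluster values are part of those that chose the 6 genes, and nothing is read from them. The genotypes did not overlap in cluster 11 for Zfp804b, Prr16 and Trp53inp1, in cluster 6 for Inpp4b and Trp53inp1, in clusters 1 and 4 for Trp53inp1, and in clusters 2 and 13 for none of the 6. Over all genes that passed the same filter on low values within a cluster, the share without overlap was 17.8% in cluster 1, 13.1% in cluster 4, 12.2% in cluster 13, 13.2% in cluster 2, 14.3% in cluster 6 and 12.6% in cluster 11. Trp53inp1 was itself under that filter in clusters 6, 11 and 13.

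Against the oligodendrocyte-like level of the same library, 4 of the 6 genes stood higher in each library in both MSN classes. The ratio was 2.03 to 6.64 in D1 and 4.16 to 16.7 in D2 for Tafa2, 2.04 to 5.58 and 4.48 to 10.9 for Csgalnact1, 2.28 to 4.97 and 1.24 to 3.45 for Inpp4b, and 10.3 to 15.4 and 8.34 to 20.1 for Prr16. Zfp804b in D1 and Trp53inp1 in both classes were the exceptions, together with Zfp804b in D2 of heterozygous replicate 3. The mix of clusters within a class also moved between libraries. Of the D2 MSN-like nuclei, cluster 2 held 47.8%, 56.4% and 56.0% in wild-type and 47.2%, 39.8% and 50.7% in heterozygous libraries, and cluster 11 held 15.2%, 17.2% and 19.2% against 23.7%, 22.0% and 18.6%. With each cluster given the same weight, the D1 minus D2 difference was 1.35 for Zfp804b, 0.57 for Inpp4b, 0.47 for Prr16, 0.61 for Csgalnact1, 0.42 for Tafa2 and 0.68 for Trp53inp1, so the sign of each of the 6 was the same. Beside the values without these weights, Zfp804b, Inpp4b and Prr16 were larger, and Tafa2, Csgalnact1 and Trp53inp1 were smaller.

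Outside the D1 and D2 classes the 6 genes did not all have the same class of highest level, though Inpp4b and Prr16 shared theirs. Over 17 classes with nuclei in all 6 libraries, Zfp804b was highest in GABAergic interneuron-like (4.57 ± 0.89), glutamatergic neuron-like (4.53 ± 1.02) and eccentric MSN-like nuclei (4.32 ± 1.52, SD, n = 6), whose libraries overlap, and next in neuroblast-like nuclei at 0.59 ± 0.80. Its D2 level ranked 10 and its D1 level last, at 17. Inpp4b was highest in cholinergic interneuron-like nuclei, at 27.2 ± 2.2, apart from every library of the next class, eccentric MSN-like at 7.74 ± 1.86. Mural-like (6.48 ± 1.52) and microglia-like nuclei (4.40 ± 0.48) came next with overlap, and D1 and D2 MSN-like nuclei ranked 10 and 14. Prr16 was highest in cholinergic interneuron-like (2.10 ± 0.75) and glutamatergic neuron-like nuclei (1.85 ± 0.48), which overlap, and D1 and D2 MSN-like nuclei ranked 7 and 8.

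Csgalnact1 was highest in committed oligodendrocyte precursor-like nuclei, at 4.48 ± 0.82 (SD, n = 6), apart from astrocyte-like nuclei at 2.30 ± 0.33, and D2 and D1 MSN-like nuclei ranked 10 and 11. Tafa2 was highest in glutamatergic neuron-like nuclei with a wide spread, 7.91 ± 4.43, overlapping GABAergic interneuron-like nuclei at 5.26 ± 0.45. These stood apart from eccentric MSN-like nuclei at 3.39 ± 0.54, which overlapped OPC-like nuclei (oligodendrocyte precursor cells) at 3.05 ± 0.94. D2 MSN-like nuclei ranked 5 for Tafa2 and D1 MSN-like nuclei 7. Trp53inp1 varied least, from 0.306 ± 0.102 in ependymal-like and 0.304 ± 0.066 in fibroblast-like nuclei to 0.0572 ± 0.0230 in microglia-like nuclei. Levels are compared between classes for 1 gene and not between genes, since gene length is not corrected for.

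**Figure D5:**
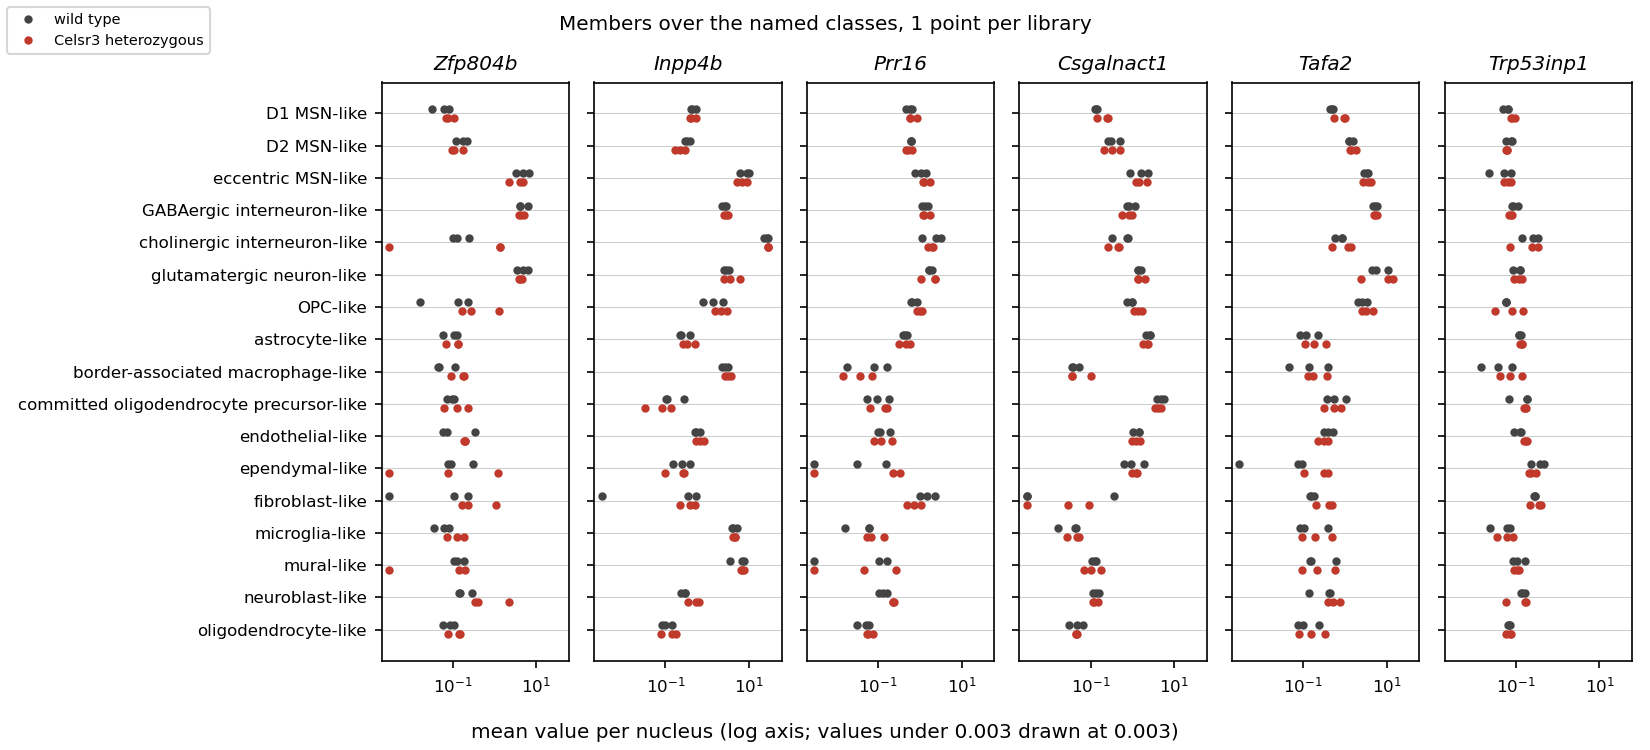
Mean deposited value per nucleus of each of the 6 genes in the named cell classes, on a log axis with values under 0.003 drawn at 0.003, 1 point per library, coloured by genotype. Inpp4b in cholinergic interneuron-like nuclei, at 22.8 to 28.3, is apart from the other classes, and Csgalnact1 is highest in committed oligodendrocyte precursor-like nuclei.

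In the 13 tested classes other than D1 and D2, which the choice of the genes did not use, no difference in the 6 genes passed the test. Of 78 pairs of a gene and a class, 48 passed the filter on low values, and 0 had an adjusted p under 0.05 in limma, where 0.00122% of 81814 gene and class pairs over all genes did (1 pair). At an unadjusted p under 0.05 there were 6 of the 48, or 12.5%, beside 5.39% over all genes. The libraries of the genotypes did not overlap in 3 of the 48, or 6.25%, beside 10.9%. Of the 48, 36 (75.0%) were higher in heterozygous libraries, beside 54.1% over all genes. However, 4 of the 48 passed the filter only through their heterozygous libraries and 1 only through wild type, by a summed value that depends on the level and on the number of nuclei, so these counts support nothing. Of the 43 pairs that either genotype would have passed alone, 3 had an unadjusted p under 0.05, 32 were higher and 1 did not overlap. The shares over all genes under that stricter filter were not computed, so nothing is read from these counts either. The same libraries, with their depth and dissection, underlie all classes, so the pairs are not independent.

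The 6 pairs with an unadjusted p under 0.05 were in OPC-like and neuroblast-like nuclei, 2 small classes. The 2 with Zfp804b and that of Inpp4b in neuroblast-like nuclei were among the pairs that passed the filter only through heterozygous libraries, and their values are given without a test. In OPC-like nuclei the difference in Zfp804b was 2.07 ± 0.88 (SE), at 0.0164, 0.131 and 0.230 in wild-type and 1.30, 0.163 and 0.281 in heterozygous libraries. The change was 1.22 without heterozygous replicate 1, which had 20 OPC-like nuclei, and 1.14 without wild-type replicate 1, so the lone high and the lone low library moved it alike. The highest value with a library left out was 2.73, without wild-type replicate 3. Csgalnact1 stood at 0.59 ± 0.21 there, at 0.738, 0.996 and 0.970 against 1.70, 1.34 and 1.08, and each heterozygous library was higher. Prr16 stood at 0.51 ± 0.20 in OPC-like nuclei. In neuroblast-like nuclei the difference in Zfp804b was 1.81 ± 0.51 (SE), at 0.288, 0.153 and 0.142 in wild-type and 2.22, 0.402 and 0.338 in heterozygous libraries. Heterozygous replicate 1, with 50 such nuclei, was again far above the rest, and without it the change was 0.96. Without heterozygous replicate 3 the difference was 2.30. Inpp4b stood at 0.84 ± 0.27 and Tafa2 at 0.83 ± 0.36 in neuroblast-like nuclei. The Tafa2 value was 0.32 without wild-type replicate 2, with 1.09 as the highest when each library was left out.

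Clusters 5, 12 and 25, which carried no class name, were tested as well. With them there were 96 pairs, 63 of them tested, again with 0 at an adjusted p under 0.05 in limma (0.00975% over all genes), 9 at an unadjusted p under 0.05, which is 14.3% beside 5.49%, and 5 without overlap, which is 7.94% beside 11.0%. Of the 63, 57 would have passed the filter in either genotype alone, and 6 of these had an unadjusted p under 0.05. Again no share over all genes under that stricter filter was computed, and nothing is read from this count. The smallest adjusted p was that of Tafa2 in cluster 25, which was at 0.615, 0.286 and 0.667 in wild-type and 2.85, 1.57 and 1.08 in heterozygous replicates 1 to 3. Each heterozygous library was higher there, and the change was 1.77 ± 0.35 (SE), with a limma adjusted p of 0.127 and a range of 0.0255 to 0.253 over the alternatives. In cluster 25 the difference in Prr16 was 0.50 ± 0.18, and in cluster 5 that in Tafa2 was 0.67 ± 0.27. The former was 0.30 without heterozygous replicate 2, and the latter was 0.36 without heterozygous replicate 1. The number of nuclei in such clusters varied widely between libraries: cluster 5 held 3.87%, 0.927% and 2.97% of wild-type and 0.829%, 11.5% and 7.16% of heterozygous libraries. Cluster 15, a neuron cluster with Tafa2 at 20.8 to 39.0, held 1.56%, 0.193% and 4.21% against 6.88%, 1.51% and 0.0115%. Oligodendrocyte-like nuclei had Tafa2 at 0.0990, 0.0737 and 0.246 in wild-type and 0.342, 0.158 and 0.0809 in heterozygous libraries. The level of heterozygous replicate 1 was the highest of these, and the part of free RNA in the Tafa2 values was not tested.

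The closest relatives of the 6 genes gave small D1-against-D2 differences, of which none passed the test. Zfp804a, the paralog of Zfp804b, stood at 0.15 ± 0.07 (SE) in D1 and 0.12 ± 0.07 in D2 MSN-like nuclei, and the difference of these values was 0.04 ± 0.05. That difference was 0.04 ± 0.06 for Inpp4a, 0.06 ± 0.10 for Csgalnact2 and 0.13 ± 0.10 for Trp53inp2. Among the TAFA family, Tafa1 had a difference of 0.13 ± 0.17 and Tafa5 of -0.06 ± 0.05, and Tafa3 and Tafa4 were too low to be tested. None of the 6 tested paralogs had an adjusted p under 0.05 in D1, D2 or the difference, and the smallest limma adjusted p among them was 0.517.

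The pathways of the 6 genes, and regional and activity markers of MSNs, were described by lists of genes, with values as log2 differences between the genotypes. The 6 genes themselves are left out of the counts and medians of these lists. Of the 32 other phosphoinositide genes, 31 were tested in D1 and D2 MSN-like nuclei, and 0 had an adjusted p under 0.05, as 0.0149% of 13406 genes did in D1 (2 genes) and 0.0157% of 12773 in D2 (2 genes). In the D1 minus D2 contrast 0 of the 31 were inside the threshold. Their median change was 0.12 in D1 and 0.12 in D2, beside 0.06 and 0.04 over all genes. Synj2, a phosphoinositide phosphatase of membrane traffic, stood at -0.50 ± 0.13 (SE) in D1, and Fig4, a phosphatase of endosomal phosphoinositides, at 0.51 ± 0.12 in D2, with limma adjusted p of 0.272 and 0.218. Pik3r1, a regulatory subunit of PI3-kinase, stood at 0.33 ± 0.10 in D1. Of the 20 other chondroitin sulfate genes, 16 were tested in D1 and 15 in D2, with 0 past the test and medians of 0.08 and 0.05. Chst12, a chondroitin sulfotransferase, stood at 0.38 ± 0.13 in D1 and 0.34 ± 0.15 in D2, and Chpf, a chondroitin polymerising factor, at 0.22 ± 0.15 in D2. Of the 7 other TAFA ligands and neurexins 5 were tested, with 0 past the test in D1, D2 or the difference. The neurexin genes Nrxn2 and Nrxn3 stood at 0.13 ± 0.09 and 0.08 ± 0.07 in D1 and at 0.09 ± 0.08 and 0.11 ± 0.08 in D2.

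Of the 26 other genes of the p53 response and autophagy, 21 were tested in D1 and 19 in D2, with 0 past the test. In D1 17 of the 21 were higher (64.8% over all genes), with 7 at an unadjusted p under 0.05 (9.65% over all genes) and a median of 0.10. In D2 12 of 19 were higher (60.3% over all genes), with a median of 0.06. The D1 minus D2 difference was positive for 15 of 19 (56.0% over all genes), with 0 inside the threshold. Its median was 0.05, beside 0.01 over all genes. Btg2, a growth-restraining gene induced by p53, stood at 0.80 ± 0.26 (SE) in D1 and 0.75 ± 0.23 in D2, and the kinase gene Plk2 at 0.20 ± 0.07 and 0.22 ± 0.08, so both had the same sign in the 2 types, where Trp53inp1 had opposite signs. The 11 tested immediate early genes, which follow neuronal activity, had a median of 0.24 in each type and 0 past the test, with Junb at 0.57 ± 0.21 in D1 and 0.70 ± 0.15 in D2, Npas4 at 0.85 ± 0.39 in D1 and Egr4 at 0.66 ± 0.24 in D2. Of the 8 striosome genes 0 passed, with medians of -0.01 and 0.05. Sema5b stood at -0.40 ± 0.21 and Bach2 at -0.16 ± 0.15 in D1, and Tac1 at 0.12 ± 0.10 and Kcnip1 at 0.20 ± 0.18 in D2. Of the 7 matrix genes 0 passed, with medians of 0.07 and 0.08. Sv2b stood at 0.22 ± 0.09 in D1 and 0.24 ± 0.10 in D2, and Cdh8 at 0.14 ± 0.07 in D1. Brinp3 was lower by a like amount in both types, at -0.55 ± 0.30 in D1 and -0.56 ± 0.12 in D2. Of the ventral list 0 passed in D2, where Drd3 stood at 0.89 ± 0.24 and Wfs1 at 0.24 ± 0.12. At an unadjusted p under 0.05 the lists held 3, 1, 0, 7, 1, 0, 1 and 4 genes in D1 and 2, 1, 0, 3, 3, 0, 2 and 1 in D2, in the order given with the ventral list last, where 9.65% of all genes in D1 and 8.71% in D2 did.

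Across 17 classes, with the mean of 3 wild-type libraries per class, genes whose levels followed a member closely were found by Pearson's r of log2(mean + 0.01). They are given as a description because the classes share libraries. Only genes past the filter on low values were searched, in the tested class where the member was highest in wild type. These were 6711 genes for Zfp804b, 12544 for Tafa2 and 2878 for Csgalnact1. For Inpp4b and Prr16 they were 1205 and for Trp53inp1 1206, from cholinergic interneuron-like nuclei, so closer genes may lie outside them. Zfp804b was followed by Kcnj6, a potassium channel gene, at r = 0.947, Vsnl1 at 0.908 and 4930473D10Rik at 0.901. Tafa2 was followed by 4930555F03Rik at 0.925, Thsd7b at 0.918 and Dpp10 at 0.914. Prr16 was followed by Dtd1 at 0.882, Mblac2 at 0.880 and Gm45645 at 0.876, and Trp53inp1 by Zfp423 at 0.828, Nxn at 0.791 and 5031425E22Rik at 0.773. Csgalnact1 was followed by Usp53 at 0.815, Gm13187 at 0.779 and 4430402I18Rik at 0.759, and Inpp4b by Rab6b at 0.747, Gng2 at 0.740 and Atp8a2 at 0.739. Among the 6 genes themselves the closest pair was Zfp804b and Tafa2, at 0.773, and Trp53inp1 and Tafa2 were the least alike, at -0.334.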

How the data were processed

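Nuclei of wild-type and Celsr3 heterozygous striatum, 3 libraries each, were profiled with 10x 3′ v3.1 chemistry on 1 sequencing lane, per the labels' protocols. The submitters' processing notes name Cell Ranger, Seurat 4.1, mm10 and GRCm38; the steps and filters behind the values are not given in the sources used here. The values deposited by the authors are taken as a score in whole numbers, UMI counts already corrected for depth; this unit was read from the values, whose sums per nucleus span only 4523 to 10638 with a coefficient of variation of 10.7%. Original depth is therefore unknown, no counting intervals were computed, and detected genes per nucleus (1284 to 5263) stand in for depth. The planned test for counts was replaced by limma for this reason.

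The 6 genes, the gene lists and the markers were chosen with earlier results of these data known. Nuclei were clustered from 2000 variable genes, without the 6 genes and Celsr3, with 30 principal components, 15 neighbours and Leiden resolution 1 (scanpy 1.11.5, igraph 0.11.9, Python 3.11.15), giving 50 clusters. A cluster was called X-like only with at least 3 markers, and at least 50% of the class's markers, raised. A marker counted as raised at over 2-fold above other nuclei and a mean above 0.1. Passing these limits was not sufficient. The leading markers of a list also had to be raised (either of them for glutamatergic neurons), and no other list could score as well. Clusters 5 and 25 had 5 of the 8 eccentric MSN markers raised and stayed unnamed. The limits were chosen with the clusters already known. The naming gave 18 classes and left 5567 nuclei unnamed. Results may differ where the study named its cells otherwise. Doublet scores above 0.25 and 5 clusters with over 40% of such nuclei removed 796 of 48834 nuclei (1.63%); Scrublet's own call marked 0.672% to 1.38%. By each nucleus's own markers, 97.2% of D1 and D2 MSN-like nuclei kept their class.

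Means per library and class were tested as log2(mean + 0.01) with limma 3.58.1 in R 4.3.3 (trended empirical Bayes), with Benjamini-Hochberg adjustment over the genes of each class with a mean of at least 0.02 and an average summed value of at least 30 per library. This scale understates changes of low genes. The D1-against-D2 difference was fitted with the library as a fixed term. A class needed 20 nuclei in each library, which left 13 besides D1 and D2 MSN-like. The script was tested on simulated data. Named genes were the 6, Celsr3, their paralogs, genes called in the D1-against-D2 contrast and the next 3, the 3 genes most like each in pattern, the 2 genes of smallest p in each list, and pairs of a gene and another class with an unadjusted p under 0.05. Alternatives changed the pseudocount, scaling, filter, weights, replicate block, doublets, cluster weights, depth matching, naming per nucleus and the libraries included. The share of nuclei with a value was added after the data were seen.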

Additional observations from a re-analysis of the deposited data

Results flagged for a closer look

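The genotype difference of Foxp2 was not the same in D1 and D2 MSN-like nuclei, by -0.31 ± 0.05 (SE) on the log2 scale in the limma test of that difference itself (adjusted p = 0.0129). It missed the threshold in 6 of 17 alternatives, among them at -0.16 with each cluster given the same weight and at -0.32 without heterozygous replicate 1 or 2. Zfp804b at 0.97 ± 0.14 and Inpp4b at 0.50 ± 0.09 were inside the threshold of the same contrast, which is the contrast that chose them, so their values are a description and not a test. With 3 libraries a group no search for single libraries that stand apart was made.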

How the results depend on the processing

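Over 17 alternatives the D1-against-D2 difference was positive in 102 of 102 fits of the 6 genes, a sign that the choice of the genes fixes in the reported fit, and the calls were not stable. The number of the 6 past the threshold, 2 as reported, was 0 with nuclei matched on genes detected, 0 on the share of nuclei with a value, 0 with no filter on low values and 4 with the replicate block. It ran from 0 to 4 when each library was left out. With nuclei matched on genes the difference was 0.96 for Zfp804b and 0.47 for Inpp4b, and on the share of nuclei 0.36 and 0.21, against 0.97 and 0.50 as reported. Of the others, Prr16 (0.42 as reported) was 0.28 with nuclei matched on genes and 0.25 on the share of nuclei, and on that share Csgalnact1 was 0.40 (0.71 as reported) and Tafa2 0.37 (0.57 as reported). With a pseudocount of 0.1 Zfp804b was 0.51 and Trp53inp1 0.32 (0.69 as reported). Foxp2, -0.31 as reported, missed the threshold at -0.27, -0.22 and -0.31 under the same 3 settings, at -0.16 with clusters weighted equally, and at -0.32 without heterozygous replicate 1 and -0.32 without heterozygous replicate 2 (limma adjusted p = 0.0959 and 0.0905), so in 6 of 17 alternatives. The number of all genes past it, 3 as reported, was 0 under the first 3 of these settings, 8 with the replicate block and 5 with limma array weights, and ran from 0 to 22 when each library was left out. As a description only, since these values chose the genes, the 0 pairs of the 6 genes past the threshold in D1 or D2 MSN-like nuclei became 1 with array weights (Tafa2 in D1, 0.82). They were 0 to 1 when each library was left out. In the other classes the leave-one-out counts were also 0 to 1, the 1 being Zfp804b in neuroblast-like nuclei, which passed the filter only through heterozygous libraries. Zfp804b in OPC-like nuclei was under the filter without heterozygous replicate 3. The 0 list genes called became 12 with array weights and 0 to 4 when each library was left out, 4 without wild-type replicate 1. Celsr3 in D1 MSN-like nuclei changed by -0.76 with array weights (limma adjusted p = 0.0133), and by -0.82 to -0.65 when each library was left out, by -0.74 to -0.50 in D2 MSN-like nuclei and by -0.60 to -0.36 in all nuclei. Signs turned for Zfp804b in D2 (0.14 on the share of nuclei with a value), for Inpp4b in D1 (0.05, 0.03 and 0.00 without wild-type replicate 3, heterozygous replicate 1 and heterozygous replicate 3, with -0.20 as the lowest value when each library was left out) and for Csgalnact1 in D2 (0.26 with array weights, 0.16 without wild-type replicate 1 and 0.20 without heterozygous replicate 3, with -0.40 as the lowest). The cause of these changes was not tested.

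Whether the replicate numbers pair the libraries is not settled here. Deviations of same-numbered libraries correlated at 0.27, 0.02 and 0.18 in D1, 0.25, 0.03 and 0.19 in D2 and 0.01, -0.02 and -0.02 in the D1 minus D2 difference. Libraries with different numbers correlated at -0.27 to 0.21 in D1, -0.27 to 0.18 in D2 and -0.01 to 0.03 in the difference. With 3 libraries a group these values cannot exclude pairing, and the replicate block is given above as an alternative. Original depth is unknown, which limits what the low levels of Zfp804b and Trp53inp1 in MSNs can show.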
